A study of Mus musculus with 6 samples.

Results

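The 10 genes described here, Foxd1, Smoc2, Tcf21, Pdgfra, Pdgfrb, Meis1, Tbx18, Aldh1a2, Ebf1 and Fap, are genes of the stroma, the supporting connective tissue, of the embryonic kidney. They were chosen by name, with earlier results of these data known. Their probes were found on the array through the RefSeq accession that the scanner output gives for each probe. All 10 were kept, among 15236 named genes and 26395 features (named genes plus probes with an accession or identifier only). They were measured by 15 probes, each well above background on all 6 arrays and saturated on none.

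The arrays carried RNA of whole mouse kidneys at E14.5 (the day of embryonic development), from a strain hybrid of 129 and C57BL/6, in which Sall1, a zinc finger gene of the nephron progenitors, was left intact or deleted. In the first line Six2Cre, a recombinase driven in nephron progenitors, deleted the floxed Sall1 gene, and 2 controls (replicates 5 and 2) were set beside 2 knockouts (replicates 7 and 9). In the second line a tamoxifen-inducible recombinase, named Sall1CreER in the series title, was activated with tamoxifen at E12.5 and the kidneys were taken 48 hours later, with 1 control (wt/flox, replicate 2) and 1 knockout (CreER/flox, replicate 5). The CreER allele appears in the knockout's name only, so carrying CreER and losing Sall1 cannot be told apart in that pair. The line of each array was read from the form of its title together with the stated design. Left unstated are the Cre status of the Six2Cre controls and whether arrays came from separate embryos. All 6 descriptions mention tamoxifen, and whether the Six2Cre mice received it is not settled. The p-values below therefore measure only the spread between these samples, which may be technical.

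Stromal progenitors of the kidney lie around the nephron progenitors and are defined by Foxd1, a forkhead transcription factor. Their descendants form the fibroblasts of cortex and medulla, the mesangium and the mural cells that wrap vessels. Signals from the stroma, among them retinoic acid made by Aldh1a2, are known to act on the neighbouring nephron progenitors and ureteric bud.

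Of the 10 genes, 7 were matched in the RefSeq promoter table (assembly GRCm38.p6), which was used for the 250 bases ahead of each transcription start. Smoc2, Pdgfrb and Fap were not matched. The upstream sequences of Foxd1, Pdgfra and Aldh1a2 are shown because these genes were higher in both Six2Cre knockouts, beside that of Tcf21, which differed little. They are read along the gene, 5′ to 3′, for Foxd1 at chr13:98353995-98354244 on the plus strand, Pdgfra at chr5:75152001-75152250 on the plus strand, Aldh1a2 at chr9:71215539-71215788 on the plus strand and Tcf21 at chr10:22820144-22820393 on the minus strand. Capitals mark matches to the motifs named after them.
Foxd1: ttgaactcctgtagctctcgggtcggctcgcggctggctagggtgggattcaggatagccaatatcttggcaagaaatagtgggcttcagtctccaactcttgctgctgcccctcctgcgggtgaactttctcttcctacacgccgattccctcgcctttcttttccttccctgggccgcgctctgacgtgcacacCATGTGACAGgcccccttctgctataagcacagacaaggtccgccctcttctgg
Pdgfra: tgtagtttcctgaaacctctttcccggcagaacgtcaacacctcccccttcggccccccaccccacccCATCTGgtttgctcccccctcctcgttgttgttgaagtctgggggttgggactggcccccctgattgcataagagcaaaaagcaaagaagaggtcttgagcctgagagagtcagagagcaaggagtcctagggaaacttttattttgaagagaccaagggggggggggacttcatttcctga
Aldh1a2: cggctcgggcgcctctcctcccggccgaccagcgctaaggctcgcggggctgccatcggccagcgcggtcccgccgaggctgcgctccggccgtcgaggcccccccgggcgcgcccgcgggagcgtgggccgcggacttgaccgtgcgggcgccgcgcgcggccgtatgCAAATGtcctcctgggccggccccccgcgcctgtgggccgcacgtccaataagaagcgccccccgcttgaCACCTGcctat
Tcf21: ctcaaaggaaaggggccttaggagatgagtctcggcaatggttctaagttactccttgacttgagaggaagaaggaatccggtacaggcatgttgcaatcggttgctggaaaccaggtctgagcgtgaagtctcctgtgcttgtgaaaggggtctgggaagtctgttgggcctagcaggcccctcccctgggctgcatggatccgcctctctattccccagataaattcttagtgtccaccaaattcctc

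Both strands were searched for 4 motifs. The forkhead motif, the kind of site that Foxd1 and its relatives read, was searched as GTAAACA. The E-box, read by basic helix-loop-helix factors such as Tcf21, was searched as CANNTG. The site of Meis factors was searched as TGACAG, and the core promoter element called the TATA box as TATAAA. Foxd1 had 1 E-box and 1 Meis match, which overlap and together give the single run in capitals. Pdgfra had 1 E-box and Aldh1a2 had 2, and Tcf21 had no match to any of the 4. Over the 32851 promoters of the table cut to the same length, an E-box was found in 66.2%, the Meis motif in 15.9%, the TATA box in 12.4% and the forkhead motif in 3.17%. No forkhead or TATA match was found ahead of any of the 7 matched genes. The Aldh1a2 sequence was 77.6% G and C, that of Foxd1 57.2%, of Pdgfra 54.4% and of Tcf21 52.4%, against a median of 52.4% for all promoters. These matches describe letters in the sequence and do not show binding.

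A few facts of the arrays bear on the values that follow. Between 71.8 and 82.9% of probes were well above background on an array, with the lowest share on the CreER knockout. Slide 1 held Six2Cre control 5 and knockout 7, and slide 2 the other 4 arrays, so each line could also be compared within a slide. Sall1 itself was lower by a log2 difference of -1.25 (SE 0.37; limma adjusted p = 0.594) in the Six2Cre knockouts and of -2.78 in the CreER knockout, in the direction the labels state. Of the kidney genes checked for the tissue, Six2, Pax2, Wt1 and Gata3 were well above background on 6 arrays and Ret on 5. Six2Cre control 2 stood apart by its skeletal muscle genes, whose median signal was 14.8-fold above that on the other arrays.

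The Six2Cre comparison asked how the stromal genes stood in kidneys whose nephron progenitors had lost Sall1. Foxd1, Smoc2, Pdgfra and Fap were each 2.38-fold to 2.95-fold higher in the mean of the 2 knockouts, and Aldh1a2 was 1.70-fold higher. Tcf21, Pdgfrb, Tbx18 and Ebf1 differed by at most 1.22-fold, and Meis1 lay between, 1.51-fold higher. None of the 10 passed an adjusted p of 0.05 in limma's fit over the 4 groups. In whole kidneys a larger share of stromal cells and more RNA of these genes per cell cannot be told apart.

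Levels are given as log2 of the processed signal minus the array's own 75th percentile, so a level of 0 equals that percentile, and levels of different probes are not compared. Foxd1 stood at 3.34 and 2.59 in Six2Cre controls 5 and 2 and at 4.55 and 3.93 in knockouts 7 and 9. Both knockouts were above both controls, with a difference of 1.27 (SE 0.40; 95% interval 0.23 to 2.31; limma adjusted p = 0.624). Its CreER control was at 2.76 and the CreER knockout at 2.997, both inside the range of the Six2Cre controls. A second Foxd1 probe gave a Six2Cre difference of 1.32.

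Smoc2, a secreted calcium-binding matrix protein, was at 0.41 and 0.44 in the Six2Cre controls and at 1.60 and 1.85 in the knockouts, a difference of 1.30 (SE 0.25; limma adjusted p = 0.283). The CreER control was at 0.59 and the CreER knockout at 1.03, so that all 3 knockouts were above all 3 controls. Its second probe gave a Six2Cre difference of 1.43.

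Pdgfra, the receptor through which mesenchymal cells respond to platelet-derived growth factor A, was at 2.74 and 2.00 in the Six2Cre controls and at 3.96 and 3.28 in the knockouts. The groups did not overlap, and the difference was 1.25 (SE 0.41; limma adjusted p = 0.661). In the CreER line it ran the other way, from 2.03 in the control to 1.53 in the knockout, the lowest of the 6 values. The second, far dimmer probe gave differences of 1.03 in the Six2Cre line and -0.63 in the CreER line. Pdgfrb, the related receptor of mural cells and mesangium, gave a different pattern: 2.37 and 2.58 in the Six2Cre controls, 2.20 and 2.39 in the knockouts. Its groups overlapped, with a difference of -0.18 (SE 0.26), and the CreER arrays were at 2.54 and 2.65.

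Fap, a membrane serine protease of activated fibroblasts, had the largest difference of the 10 genes. It stood at -0.52 and -1.14 in the Six2Cre controls and at 0.97 and 0.49 in the knockouts, a difference of 1.56 (SE 0.35; limma adjusted p = 0.384). In the CreER line it stood at -1.08 in the control and at 0.26 in the knockout, which is 2.53-fold higher. All 3 knockouts were above 0 on this scale and all 3 controls below it.

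Aldh1a2, the enzyme that makes retinoic acid from retinal, was at 4.06 and 4.50 in the Six2Cre controls and at 5.01 and 5.08 in the knockouts. The groups did not overlap, and the difference of 0.76 (SE 0.28; limma adjusted p = 0.752) was larger than the gap of 0.43 between the controls. The CreER control was at 4.42 and the CreER knockout at 4.80, above all 3 controls.

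Among the transcription factors other than Foxd1, the differences were smaller. Meis1, a homeodomain factor of the stroma, was at 0.89 and 0.05 in the Six2Cre controls and at 1.402 and 0.73 in the knockouts. Knockout 9 lay below control 5, so the groups overlapped, and the difference of 0.59 (SE 0.42) was smaller than the 0.84 between the controls. Its CreER arrays were at 0.20 in the control and 0.05 in the knockout. A second Meis1 probe gave a Six2Cre difference of 0.52, with slide pairs of 0.04 and 1.00. On that probe both knockouts were above both controls. Tcf21, a basic helix-loop-helix factor that podocytes also express, was at 2.89 and 2.75 in the Six2Cre controls, 2.92 and 3.15 in the knockouts, 2.79 in the CreER control and 2.97 in the CreER knockout. Every knockout was above every control, yet the Six2Cre difference was only 0.22 (SE 0.25) and knockout 7 exceeded control 5 by 0.03.

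Tbx18, a T-box factor of ureter mesenchyme and mural precursors, was at -1.41 and -1.88 in the Six2Cre controls and at -1.54 and -1.18 in the knockouts. The difference was 0.29 (SE 0.31), and the CreER arrays were lower than all Six2Cre arrays, at -2.27 in the control and -2.40 in the knockout. Ebf1, a helix-loop-helix factor of medullary stroma, was at -1.13 and -1.98 in the Six2Cre controls and at -1.41 and -1.39 in the knockouts, so both knockouts lay between the controls. The Ebf1 difference was 0.15 (SE 0.36), with the CreER control at -2.05 and the CreER knockout at -2.11.

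**Figure D1:**
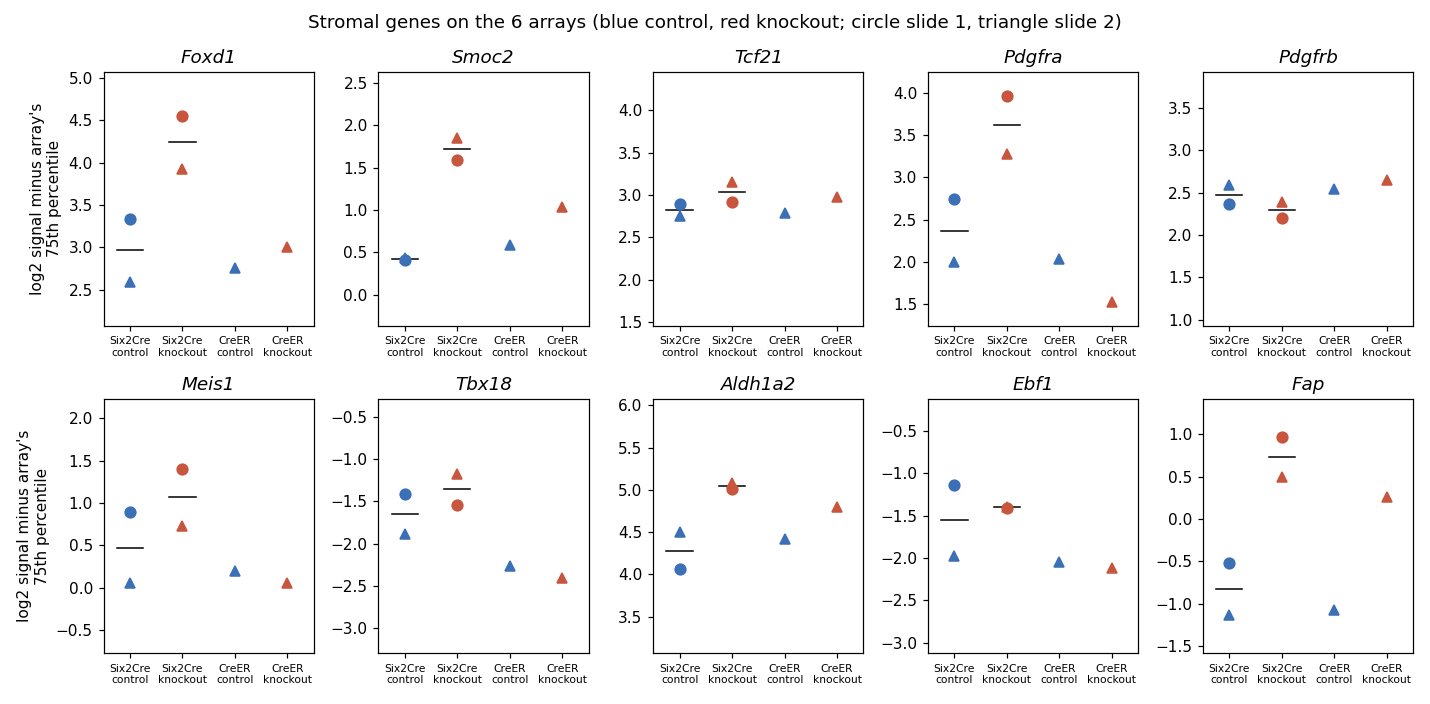
Level of each of the 10 stromal genes on each array, as log2 signal minus the array's 75th percentile, by line and genotype; each panel spans the same log2 range, bars mark the mean of 2 arrays, circles are slide 1 and triangles slide 2. Foxd1, Smoc2, Pdgfra, Aldh1a2 and Fap are higher in both Six2Cre knockouts than in both controls, whereas Pdgfra is lowest in the CreER knockout at 1.53.

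Counted together, 6 of the 10 genes (Foxd1, Smoc2, Tcf21, Pdgfra, Aldh1a2 and Fap) had both Six2Cre knockouts above both controls, where 17.6% of all features did. None of the 10 had both knockouts below both controls, where 12.6% of features did. Of the 10, 4, namely Foxd1, Smoc2, Pdgfra and Fap, were at least 1.5-fold higher in the pair on each slide, a mark that 4.53% of features met. The median difference of the 10 genes was 0.68, with 9 above 0 and 1 below. Over all features the median was 0.03, and 53.9% were above 0. Because the 10 were chosen with earlier results of these data known, these counts are a description and not an independent test.

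Within slide 1 the pair difference was 1.21 for Foxd1, 1.18 for Smoc2, 1.22 for Pdgfra, 0.95 for Aldh1a2 and 1.49 for Fap. Within slide 2 it was 1.33 for Foxd1, 1.42 for Smoc2, 1.28 for Pdgfra, 0.58 for Aldh1a2 and 1.63 for Fap. These 5 genes differed in the same direction on both slides, and for Aldh1a2 the difference was smaller on slide 2. On the probes used, Foxd1, Pdgfra, Meis1 and Fap were higher on slide 1 than on slide 2 in both genotypes. For Foxd1 the shift was 0.75 between the controls and 0.62 between the knockouts, and for Pdgfra 0.75 and 0.69. Smoc2 did not share that shift, its controls differing by 0.02. On the second probes of Meis1 and Pdgfra the knockouts were lower on slide 1, at -0.78 against 0.01 for Meis1 and at -2.85 against -2.66 for Pdgfra. Tbx18 and Ebf1 had pair differences of opposite sign, -0.13 and -0.28 on slide 1 against 0.70 and 0.58 on slide 2, and Meis1 had 0.51 and 0.68.

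The tests gave different counts. In limma's fit over the 4 groups 0% of 26395 features passed, among them none of the 10 genes; 1672 features and 5 of the 10 genes had an unadjusted p under 0.05. With slide as a block, 3056 features and 6 of the 10 genes had an unadjusted p under 0.05, and again no adjusted p passed. The adjusted p with that block was 0.160 for Foxd1, 0.163 for Smoc2, 0.160 for Pdgfra, 0.129 for Fap and 0.327 for Aldh1a2. With the slide block and limma's trended, robust estimate of the spread, 625 features passed. Higher calls made up 1.15% of all features and 4 of the 10 genes, and lower calls 1.22% of features and none of the 10. Those 4 were Foxd1 (adjusted p = 0.00938), Smoc2 (0.00994), Pdgfra (0.00923) and Fap (0.00667), all in limma. Aldh1a2 (0.0637) and Meis1 (0.113) missed the threshold in that limma fit. With slide as a block, a gene's own spread is only the disagreement between its Six2Cre slide pairs. Limma steadies it with the spread of all features, so these p-values rest largely on that shared estimate.

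Six2Cre control 2, the array with high muscle signal, was below control 5 for Foxd1, Tcf21, Pdgfra, Meis1, Tbx18, Ebf1 and Fap. With control 2 left out, control 5 of slide 1 alone was set against knockouts of both slides. The values without 1 Six2Cre array, here and below, therefore also carry the difference between slides. Without control 2, the difference was 0.90 for Foxd1, 0.88 for Pdgfra, 1.25 for Fap, 1.31 for Smoc2 and 0.98 for Aldh1a2. Meis1 then came to 0.17, Tbx18 to 0.05 and Ebf1 to -0.27. Leaving out the other arrays in turn also moved Meis1, from 0.26 without knockout 7 to 1.01 without control 5, and Tbx18, from 0.11 without knockout 9 to 0.52 without control 5. Without control 2, 6 of the 10 genes had both knockouts above control 5, where 35.8% of features did. The part of the muscle signal in these values was not tested.

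**Figure D2:**
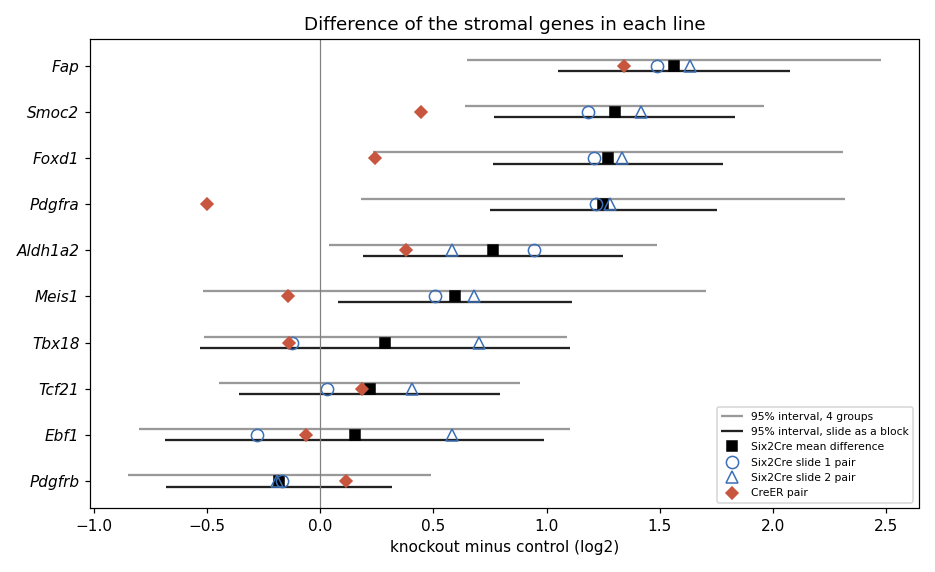
Knockout minus control on the log2 scale for each stromal gene: squares are the Six2Cre mean with its 95% interval from the 4-group fit (grey) and with slide as a block (black), open symbols the pair on each slide, red diamonds the CreER pair. Fap, Smoc2, Foxd1 and Pdgfra have both Six2Cre pairs above 1, and of these only Fap has its CreER diamond above 1.

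In the inducible line the question was how the same genes stood 48 hours after tamoxifen, and there 1 knockout was set beside 1 control with no replicate, so no test was made. Fap was the single one of the 10 genes at least 1.5-fold higher, where 3.72% of 25925 features were. None of the 10 was at least 1.5-fold lower, where 6.2% of features were. Those shares include dim probes, while the 10 genes were well above background on all 6 arrays. With only such probes kept, the count of lower features fell from 1607 to 394 and that of higher features from 965 to 682. Smoc2 was 1.36-fold higher, Aldh1a2 1.30-fold and Foxd1 1.18-fold, and Pdgfra was 1.41-fold lower. The median difference of the 10 genes was 0.15, with 6 above 0 and 4 below, against -0.01 over all features, of which 48.9% were above 0.

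Whether the lines differed was tested as the CreER difference minus the Six2Cre difference, in the fit over the 4 groups. Its spread comes from the replicates within each Six2Cre group, which lay on different slides. The lone CreER arrays are assumed there to vary like the others. No feature passed (0% of 26395), 615 had an unadjusted p under 0.05, and none of the 10 genes was among them. Pdgfra had the largest value of the 10, -1.75 (SE 0.71; 95% interval -3.60 to 0.10; limma adjusted p = 1.00), followed by Foxd1 with -1.03 (SE 0.69) and Smoc2 with -0.86 (SE 0.44). The 95% interval ran from -2.83 to 0.77 for Foxd1 and from -1.999 to 0.29 for Smoc2. For Fap the lines gave nearly equal values, 1.56 and 1.34. With the slide block and trended, robust spread, Pdgfra had the smallest adjusted p of the 10 genes for this difference, 0.111.

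Over both lines, Fap was the gene whose knockouts stood most evenly above their controls. In the fit of genotype to all 6 arrays, with terms for line and slide, its difference was 1.49 (SE 0.12), 2.81-fold, with a limma adjusted p of 0.215 that was the smallest of the 10 genes. No feature passed that fit (0% of 26395), although 2560 features and 4 of the 10 genes had an unadjusted p under 0.05. With limma's trended, robust spread 12 features passed, Fap among them (adjusted p = 0.0348). Smoc2, Tcf21, Aldh1a2 and Fap, 4 of the 10 genes, had all 3 knockouts above all 3 controls, where 6.81% of features did. These values reuse the Six2Cre arrays and are not a second line of evidence for that comparison.

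Genes whose levels ran most like Foxd1 across the 6 arrays were found by the root mean square distance of mean-centred log2 levels, over 15226 named genes outside the 10. The 5 nearest to Foxd1 were Agtr2 (0.091), an angiotensin receptor, Adamtsl1 (0.101), Plxnc1 (0.122), a plexin, Grik1 (0.125) and Sema3a (0.135), a secreted semaphorin. Their own Six2Cre differences ran from 1.08 for Plxnc1 to 1.45 for Grik1, as the choice by likeness implies. The 5 nearest to Smoc2 were C1qtnf2 (0.088), Gbp3 (0.110), Syt13 (0.125), Ccl12 (0.130), a chemokine, and Ntng1 (0.135). Within the 10 genes, the nearest to Foxd1 was Meis1 at 0.302 and the nearest to Smoc2 was Aldh1a2 at 0.274, farther than all of these. A pool of 15226 genes is bound to hold nearer profiles than the 10, so these distances cannot tell whether the 10 run together.

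A list of 30 further stromal genes, also chosen with earlier results of these data known, was read beside the 10. Of the 30, 25 had a Six2Cre difference above 0 and 5 below, with a median of 0.70. Both knockouts were above both controls in 20 of the 30 and below in 0, where 17.6% and 12.6% of all features were. With the slide block and trended, robust spread 9 passed as higher and 0 as lower, where 1.15% and 1.22% of all features did. The largest differences were those of Ntn1, which encodes the secreted guidance cue netrin 1, at 2.03 (SE 0.54; limma adjusted p = 0.512), and of the matrix proteoglycans Ogn at 1.56 (SE 0.31) and Lum at 1.33 (SE 0.26). In the CreER pair these 3 genes differed by 0.04, 0.08 and 0.03, and the median of the 30 was 0.07.

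The retinoic acid pathway, in which Aldh1a2 makes the ligand, held differences in both directions. Of 19 listed genes 18 were kept, 10 with a Six2Cre difference above 0 and 8 below, and a median of 0.05. Cyp26a1, an enzyme that breaks down retinoic acid, was lower by a difference of -2.32 (SE 0.29; limma adjusted p = 0.142), and both slide pairs shared that direction with -2.27 and -2.38. In the CreER knockout it was not well above background, which makes it at least 11.0-fold lower than in the CreER control. Crabp1 and Crabp2, which bind retinoic acid in the cytoplasm, were higher in the Six2Cre knockouts by 1.52 (SE 0.35) and 1.01 (SE 0.27), with CreER differences of -0.05 and -0.16. Rbp4, the carrier of retinol in plasma, had a Six2Cre difference of -1.36 (SE 0.50), with slide pairs of -0.63 and -2.09 and a value of -0.68 without control 2. With the slide block and trended, robust spread, Crabp1 passed as higher and Cyp26a1 as lower (limma adjusted p = 0.0101 and 0.0131).

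In the PDGF pathway the 5 listed ligands and partners gave 2 differences above 0 and 3 below, with a median of -0.26. Pdgfd, a ligand mainly of Pdgfrb, was at 0.99 (SE 0.48) and Pdgfrl, a receptor-like protein, at 0.79 (SE 0.24). Pdgfa, a ligand of Pdgfra, was at -0.60 (SE 0.29), opposite in sign to its receptor. The slide pairs were 0.66 and 1.32 for Pdgfd and -0.44 and -0.75 for Pdgfa. Without control 2, Pdgfd was at 0.41 and Pdgfa at -0.36. None of the 5 passed in limma's Six2Cre fit over the 4 groups, with slide as a block, or with that block and trended, robust spread.

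**Figure D3:**
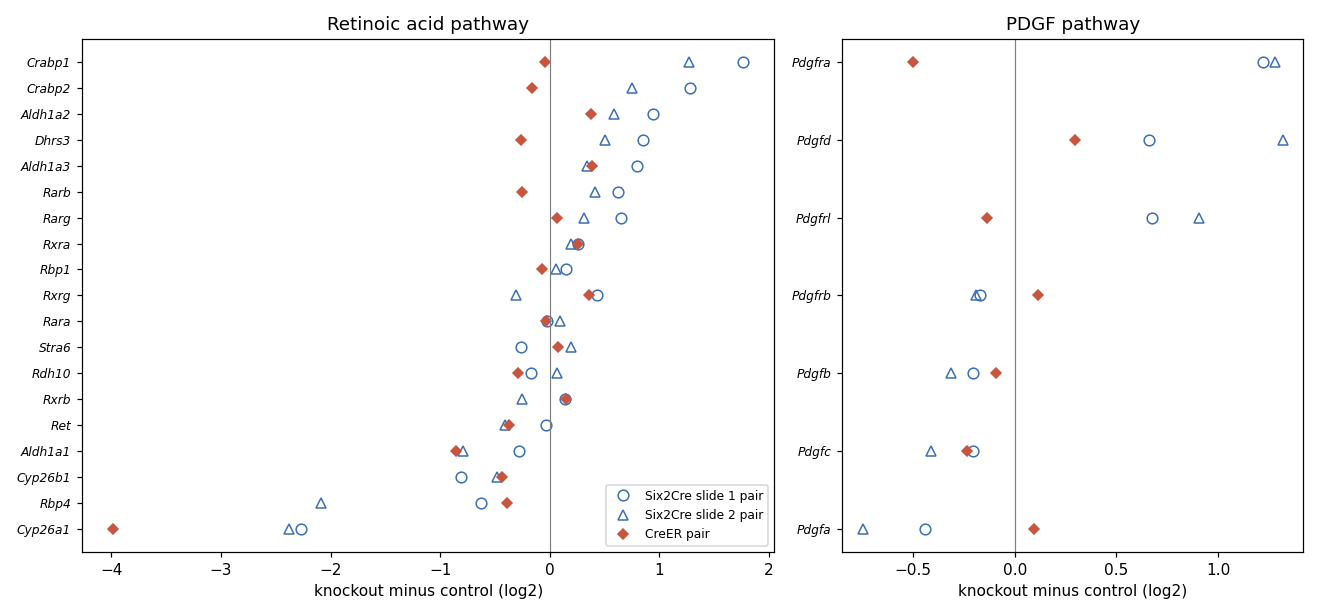
Knockout minus control on the log2 scale for genes of the retinoic acid and PDGF pathways, with Aldh1a2, Pdgfra and Pdgfrb among them: circles are the Six2Cre pair on slide 1, triangles that on slide 2 and red diamonds the CreER pair. Cyp26a1 lies far below 0 in all 3 pairs (its CreER knockout signal was not well above background), and Crabp1 and Crabp2 lie above 0 in both Six2Cre pairs.

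Genes listed for signalling between the stroma and its neighbours were split, 8 of 14 kept above 0 and 6 below, with a median of 0.01. Those with the largest differences were Tgfb2, a growth factor, at 1.29 (SE 0.29), Fgf7, a fibroblast growth factor, at 1.07 (SE 0.74), and Fjx1, a homologue of the fly kinase four-jointed, at -1.03 (SE 0.66). Fgf7 had overlapping groups and slide pairs of 0.83 and 1.30, and came to 0.20 without control 2 and to 0.43 without knockout 7. Fjx1 had pair differences of -1.92 and -0.13 and came to -0.09 without knockout 7. With the slide block and trended, robust spread 3 passed as higher and 0 as lower, where 1.15% and 1.22% of all features did. The 3 were Tgfb2 (limma adjusted p = 0.0223), and Fat4 (0.0287) and Dcn (0.0320). Fat4 and Dcn were named after their values were seen. Fat4 is the large cadherin of the stroma, and Dcn, also among the 30 stromal genes above, the proteoglycan decorin.

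Close relatives of the 10 genes gave no common direction. Of 33 listed 30 were kept, 14 above 0 and 16 below, with a median of -0.05. Ebf3, a relative of Ebf1, was at 1.77 (SE 0.28; limma adjusted p = 0.203) in the Six2Cre line and 0.97 in the CreER pair, whereas Ebf1 itself was at 0.15 and -0.06. Msc, a relative of Tcf21 known from muscle precursors, was at -2.30 (SE 0.50) and Smoc1 at -0.75 (SE 0.39), the latter opposite in sign to Smoc2. The slide pairs were -2.04 and -2.55 for Msc and -0.61 and -0.88 for Smoc1. Without control 2, Msc was at -1.71 and Smoc1 at -0.35. Tbx15 was well above background on only 1 array of each Six2Cre group, and its level was -4.23 on control 2 and between -7.73 and -7.11 on the other 3 arrays.

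Markers of other cells in a kidney differed in part between the same groups. All 20 kept nephron progenitor genes had a Six2Cre difference below 0, with a median of -1.03. Among them are the deleted gene Sall1 itself, and Gdnf at -0.04, whose slide pairs were 0.10 and -0.19. The list's summed signal, in multiples of the array's 75th percentile, was 73.2 and 80.5 in the controls and 36.9 and 36.6 in the knockouts. The summed signal of the 10 stromal genes was 50.8 and 48.7 in controls 5 and 2 and 91.8 and 80.4 in knockouts 7 and 9, and 48.6 and 57.6 in the CreER control and knockout. That of the 30 further stromal genes ran from 311 to 317 in the Six2Cre controls and from 403 to 440 in the knockouts. Each sum is carried by the brightest probes of its list.

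Macrophage genes were also higher in the Six2Cre knockouts, 15 of 17 above 0 with a median of 0.64, and their summed signal was 5.78 and 6.94 in the controls and 9.21 and 11.4 in the knockouts. Mural and smooth muscle genes, listed without Pdgfrb, had 8 of 15 above 0 and a median of 0.01. Ureter mesenchyme genes, listed without Tbx18, had 5 of 12 above 0 and a median of -0.14. Endothelial genes had 7 of 12 above 0 and a median of 0.07. Podocyte genes, a list that holds Tcf21 among those above 0, had 5 of 14 above 0 and a median of -0.47. The part of these cell types in the values of the stromal genes was not tested.

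All 19 kept skeletal muscle genes had a Six2Cre difference below 0, with a median of 0.38 within slide 1 and of -4.15 within slide 2. Their summed signal was 57.7 on control 2 and between 3.68 and 7.03 on the other arrays. In the CreER pair 18 of them were higher in the knockout and 1 lower, with a median of 0.95, where 48.9% of all features were higher. Their summed signal there was 3.97 in the control and 7.03 in the knockout. The part of muscle signal in the CreER values of the stromal genes was not tested. The remaining lists split: adrenal and gonad 5 above and 8 below, neural crest and neuron 5 and 7, ureteric bud 5 and 7, with medians of -0.13, -0.06 and -0.13.

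**Figure D4:**
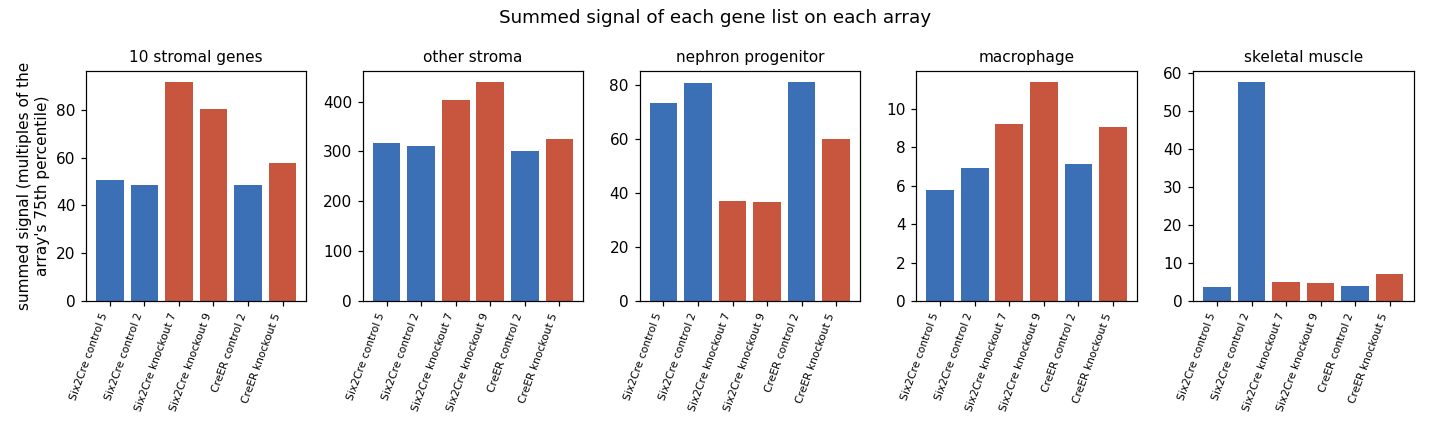
Summed signal of each gene list on each array, in multiples of the array's 75th percentile, on axes that start at 0, with controls in blue and knockouts in red. The 10 stromal genes sum to 91.8 and 80.4 in the Six2Cre knockouts against 50.8 and 48.7 in the controls, nephron progenitor genes run the other way, and skeletal muscle genes stand out on Six2Cre control 2 at 57.7.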

How the data were processed

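Cy3-labelled RNA of 6 kidney samples was hybridised to 1-colour Agilent arrays, 1 array a sample. Per the file headers, the deposited intensity values were made by Feature Extraction 10.5.1.1 with annotation of genome build mm9; no array position is given here, and promoters come from RefSeq on GRCm38.p6. The deposited series table equals the processed signal (100% within a relative tolerance of 0.001), unscaled and uncentred; its column medians are 234.115, 216.847, 201.695, 216.047, 217.313 and 186.422 for Six2Cre control 5, knockout 7, control 2, knockout 9, CreER control and knockout.

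From the deposited processed intensity, flagged and control spots were left out, spots of a probe averaged, and log2 taken minus the array's 75th percentile. Features kept were well above background on at least 2 arrays; a gene took its probe of highest mean. Fits used limma 3.58.1 (R 4.3.3) over 26395 features with Benjamini-Hochberg adjustment, on 4 groups, with slide as a block, or over 6 arrays; scripts were tested on simulated data. Normexp (offset 50) was run on the median spot signal, as the mean signal was not among the columns used here. All 10 genes are named; of each other list, up to 3 of largest Six2Cre difference (some are not reported here), plus retinoic acid, PDGF and related genes past 1.5-fold on both slides, and the 5 nearest profiles. The 10 genes and the lists were chosen with earlier results of these data known. Alternatives tried were scaling, background correction, dim-probe filter, probe choice, slide, spread estimate and leaving out each array, for named genes of the other lists and for the array rich in muscle signal after seeing the data. The number of arrays limits the precision.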

Additional observations from a re-analysis of the deposited data

Results flagged for a closer look

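Of the 10 stromal genes, 3 had both Six2Cre pairs on one side of 0 and the CreER pair on the other. For Pdgfra the CreER difference minus the Six2Cre difference was -1.75, for Meis1 -0.74 and for Pdgfrb 0.29. In limma the adjusted p of that difference passed for none of the 3, and the smallest, that of Pdgfra with the slide block and trended, robust spread, was 0.111. The CreER side rests on 1 array of each genotype.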

How the results depend on the processing

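With 2 arrays or 1 array a group, the spread was poorly known, and counts of calls moved with its estimate. In the Six2Cre line 127 features passed with the array median as the scaling and 625 with the slide block and trended, robust spread, against 0 otherwise; over both lines 59 and 12 passed, with the array median and with trended, robust spread. With normexp, 328 features were at least 1.5-fold higher and 199 lower in the CreER pair, against 965 and 1607; with probes well above background on all 6 arrays, 394 were lower. Fap over both lines passed with the array median (limma adjusted p = 0.0417) and with trended, robust spread.

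Over 12 alternatives each, the Six2Cre difference ranged from 0.90 to 1.64 for Foxd1, 1.17 to 1.43 for Smoc2, 0.88 to 1.62 for Pdgfra, 0.55 to 0.98 for Aldh1a2 and 1.25 to 1.87 for Fap, with the lowest and highest of Foxd1, Pdgfra and Fap given by leaving out 1 control. Signs turned only for small values. Leaving out 1 array at a time, Ebf1 ran from -0.27 to 0.57 in the Six2Cre line and from -0.17 to 0.26 over both lines, and Tbx18 from -0.13 to 0.29 over both lines. The line difference then ran from -0.63 to 0.21 for Ebf1, from -0.53 to 0.0901 for Fap and from -0.15 to 0.0852 for Tcf21, and with normexp that of Tcf21 was 0.0512. Apart from the line difference, the negative values of Ebf1 and Tbx18 came without Six2Cre control 2 or, over both lines, also without knockout 9. The line difference of Ebf1 was already negative with all arrays, at -0.21. The cause was not tested. No scaling moved the median of all features by over 0.1. Control and knockout arrays share no replicate number; they are paired by slide alone, as in the fits with slide as a block.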
